A study of Mus musculus with 14 samples.

Results

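The linker histone H1 genes were followed through RNA-Seq of sorted embryonic mouse kidney cells in which Mek1 and Mek2 (gene symbols Map2k1 and Map2k2), the kinases directly upstream of ERK, were lost. The 7 genes were chosen by name: Hist1h1a, Hist1h1b, Hist1h1c, Hist1h1d and Hist1h1e, which are replication-dependent, and H1f0 and H1fx, which are not. All 7 were present among the 55335 genes of the ureteric bud (UB) table and the 52636 genes of the metanephric mesenchyme (MM) table.

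UB cells were taken at E12.5 from 4 dko embryos (HoxB7Cre-GFP;Mek1fl/fl;Mek2-/-) and 4 control embryos, of which controls 1, 3 and 4 were Mek1fl/+;Mek2+/- and control 2 was Mek1fl/+;Mek2+/+. MM cells, labelled nephron progenitors in some fields, were taken at E13.5 from 3 dko embryos (Six2-TGC;Mek1fl/fl;Mek2-/-) and 3 control embryos (Six2-TGC;Mek1fl/+;Mek2+/+). HoxB7Cre-GFP acts in the UB lineage and Six2-TGC in nephron progenitors, Mek2 is lost from the whole dko embryo, and by their labels all embryos, controls included, carry a floxed Mek1 allele on a mixed C57BL6/Rcc-129/SvEv background. The genotypes are those of the labels, and the study's methods also list Mek1+/+;Mek2+/- among UB controls and Mek1fl/+;Mek2+/- among MM controls, which no labelled library here carries. Each library held the GFP-sorted cells of both kidneys of an embryo. The sample titles also hold a number whose meaning they do not give. UB controls 2 to 4 share one, as do UB dko 1 and 2, MM controls 1 and 2, and MM dko 1 and 2, and since no dko library shares one with a control, whatever it marks cannot be told apart from genotype. Because these are bulk libraries, fewer cells making an H1 transcript and less of it per cell cannot be told apart.

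Linker histones bind where DNA enters and leaves the nucleosome and help chromatin to fold. The Hist1h1 genes lie in the large histone cluster, are transcribed mainly in S phase, and give mRNAs that end in a conserved stem-loop bound by the stem-loop binding protein in place of a poly(A) tail. H1f0 (H1.0) accumulates in many cells as they stop dividing and differentiate, and H1fx (H1.10) is a divergent, broadly expressed member; both give polyadenylated mRNAs through the cell cycle. Cells can make up for a missing subtype with the others, so the mixture of subtypes is commonly described together with their sum.

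The stem-loop is what sets the replication-dependent genes apart in sequence, and it was found in the GENCODE M21 transcripts of Hist1h1a, Hist1h1c, Hist1h1d and Hist1h1e (GRCm38, chromosome 13). Each is shown 5′ to 3′ with flanking bases in lower case. Capitals mark the longest word that the 4 transcripts share past the stop codon, which covers the loop and the stem but for the last paired base, lying past the end of the Hist1h1a model.

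Hist1h1a: cccaacGGCTCTTTTCAGAGC

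Hist1h1c: ccaaaaGGCTCTTTTCAGAGCcacca

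Hist1h1d: tcaaacGGCTCTTTTCAGAGCcaccc

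Hist1h1e: cccaaaGGCTCTTTTCAGAGCcaccc

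The capitals began 24 to 40 bases after the stop codon, and are shared by the 4 genes by construction. The word GGCTCTTTTCAGAGC was present in 31 of 21951 protein-coding genes (0.141%, longest transcript, transcript strand only), of which 26 were histone genes. The model of Hist1h1b ended at its stop codon and could not be searched beyond it, and the transcripts of H1f0 and H1fx did not hold the word. AATAAA, the usual polyadenylation word, lay in the last 50 bases of Hist1h1c, H1f0 and H1fx, as in 56.4% of protein-coding genes.

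The promoters also differed between the Hist1h1 genes and the other pair. Those of Hist1h1e, Hist1h1a and H1f0 are printed from RefSeq (GRCm38.p6), 250 bases before to 50 bases after the start. Hist1h1e had the highest group mean of the H1 genes in the UB per kilobase of RefSeq length. Hist1h1a alone of the Hist1h1 genes lacks the exact word of the H1 box, and near matches were not searched. AAACACA (the H1 box), CCAAT and TATAAA, searched on both strands, are in capitals.

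Hist1h1e (chr13:23622509-23622808, minus strand): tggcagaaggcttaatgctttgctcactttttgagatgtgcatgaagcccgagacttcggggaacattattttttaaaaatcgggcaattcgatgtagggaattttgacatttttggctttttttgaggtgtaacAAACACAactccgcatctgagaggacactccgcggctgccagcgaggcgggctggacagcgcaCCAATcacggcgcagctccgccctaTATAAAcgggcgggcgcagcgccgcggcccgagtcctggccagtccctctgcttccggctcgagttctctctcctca

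Hist1h1a (chr13:23763418-23763717, plus strand): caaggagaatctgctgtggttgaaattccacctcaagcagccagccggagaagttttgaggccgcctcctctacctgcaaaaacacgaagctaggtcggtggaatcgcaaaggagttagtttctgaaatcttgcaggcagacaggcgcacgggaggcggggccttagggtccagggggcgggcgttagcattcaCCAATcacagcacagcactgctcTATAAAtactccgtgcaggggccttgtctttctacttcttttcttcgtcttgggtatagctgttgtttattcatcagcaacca

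H1f0 (chr15:79027962-79028261, plus strand): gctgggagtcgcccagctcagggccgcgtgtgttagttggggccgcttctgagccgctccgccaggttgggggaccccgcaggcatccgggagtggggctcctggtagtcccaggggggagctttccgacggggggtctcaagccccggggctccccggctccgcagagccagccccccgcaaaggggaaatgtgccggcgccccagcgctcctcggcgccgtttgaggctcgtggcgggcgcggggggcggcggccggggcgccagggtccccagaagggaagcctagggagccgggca

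AAACACA was found 112 to 122 bases before the start of Hist1h1b, Hist1h1c, Hist1h1d and Hist1h1e, and in 7.18% of all 32851 promoters. CCAAT was found in all 5 Hist1h1 promoters (37.4% of all promoters) and TATAAA in those of Hist1h1a, Hist1h1b, Hist1h1d and Hist1h1e (13.6%). None of the 3 words was found in the H1f0 or H1fx promoter, whose GC content was 75.0% and 77.7%, against 45.7% to 54.3% for the Hist1h1 genes. The RefSeq and GENCODE starts of H1f0 differ, so the printed window is that of the RefSeq start.

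The library facts that touch the H1 genes are these. Totals were 4857053 to 7493144 counts in UB dko, 5141500 to 6310510 in UB control, 1443582 to 3438297 in MM dko and 5880919 to 6442484 in MM control libraries. Map2k2 averaged far less in MM dko (11.4 to 24.7 normalized counts) than in MM control (211 to 279), but UB dko libraries 1 and 3, with 282 and 302, lay within the UB control range of 199.7 to 400.0, against 43.6 and 65.8 in UB dko 2 and 4. The names UB dko 1 and UB dko 3 therefore stand throughout for libraries labelled dko. Map2k1 was not lower in dko of either tissue, with 170.2 to 236 in UB dko against 125 to 184 in UB control, and 112 to 165 in MM dko against 76.2 to 99.8 in MM control. The levels of GC-poor genes relative to GC-rich genes, taken as the log2 difference between the lowest and the highest of 5 GC bins, stood at 2.27 and 1.62 in UB dko 2 and 4 and at 2.20 to 3.23 in MM dko, and between -0.28 and 0.46 in all other libraries. Mitochondrial rRNA took 1.40% to 7.02% of counts in UB dko and 1.05% to 1.38% in UB control libraries, and 11% to 15.9% in MM dko and 1.73% to 2.27% in MM control libraries, and its part in the H1 values was not tested. UB dko 3 gave 32.5% of its counts to the rRNA-like transcript Gm42418, against 3.26% to 4.65% in the other 7 UB libraries. By markers, UB epithelium genes summed to 12788 to 15260 normalized counts in UB dko and 17463 to 18682 in UB control libraries. Of the 9 listed, the tip genes Ret and Etv5 were called lower and 0 higher, beside 1.24% and 2.70% of all UB genes tested. Gata3, Cdh1 and Krt8 averaged more in UB dko and were not called. With the GC and length offsets described below, those 3 were called higher and 4 were called lower, beside 4.04% of all genes called lower. Nephron progenitor genes summed to 7302 to 9704 in MM dko and 8314 to 9345 in MM control libraries. Of the 8, 3 were called lower (Cited1, Osr1 and Sall1) and 2 higher (Eya1 and Itga8), beside 27.9% and 25% of all MM genes tested. With the GC and length offsets 0 were called lower and 3 higher, and the list median moved from -0.50 to 0.55. UB epithelium genes summed to 173 to 311 in MM dko and 414 to 480 in MM control libraries, with Etv5 lower. Renal stroma genes summed to 90.0 to 597 in UB dko and 68.3 to 286 in UB control libraries, and to 677 to 1025 in MM dko and 449 to 719.8 in MM control libraries, with Foxd1 higher and Pdgfrb lower in MM dko. With the GC and length offsets 0 stroma genes were called lower in the MM and 2 higher. Endothelial, leukocyte and erythroid lists summed to at most 343 in any library, with Hba-a1 and Hba-a2 at 0 throughout, and the part of these other cell types in the H1 values was not tested.

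In the UB, the 5 replication-dependent H1 transcripts averaged less in the libraries labelled dko than in control, but among the 7 H1 genes only Hist1h1d passed the test across all genes. Counts below are normalized counts (TMM, scaled to the mean library), and tests are edgeR quasi-likelihood tests, with p-values adjusted by Benjamini-Hochberg across all 13425 tested genes. Of the 7 H1 genes, 1 was called lower and 0 higher at an adjusted p under 0.05, beside 1.24% of all genes tested that were called lower and 2.70% that were called higher. At an unadjusted p under 0.05, all 5 Hist1h1 genes were lower, beside 7.91% of genes, and 0 H1 genes were higher, beside 13% of genes. DESeq2 called 4 lower (Hist1h1a, Hist1h1b, Hist1h1d and Hist1h1e, beside 3.30% of genes) and 0 higher, beside 5.41%.

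Hist1h1d (H1.3), which lies on chr13:23553262-23560686 in the GENCODE model, had 1061, 179, 714 and 273 counts in UB dko 1 to 4, against 1389, 2812, 3011 and 3091 in UB control 1 to 4. No dko library reached the lowest control. It averaged 557 ± 409 in UB dko and 2576 ± 800.0 in UB control (SD, n = 4 each), and its log2 fold change was -2.21 ± 0.49 (SE, adjusted p = 0.0301, edgeR). Of the genes tested, 0.469% had a lower one. The call was lost when UB control 1, 2, 3 or 4 or UB dko 4 was left out, with an adjusted p of up to 0.105 (edgeR).

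Hist1h1a (H1.1), found mostly in early and dividing tissues, had 1095, 179, 1099 and 347 counts in UB dko libraries, against 1642, 2298, 3358 and 1839 in UB control libraries. The groups did not overlap, as for Hist1h1d. Every dko library lay below every control for these 2 of the 7 genes and for 7.06% of all genes tested. The log2 fold change of Hist1h1a was -1.75 ± 0.49 (SE, adjusted p = 0.0689, edgeR).

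Hist1h1b (H1.5) had 1209, 139, 464 and 315 counts in UB dko libraries, against 1201, 2429.9, 2400.3 and 1719.9 in UB control libraries. UB dko 1 and UB control 1 met, and the other 3 dko libraries were below all controls. Its log2 fold change was -1.86 ± 0.52 (SE, adjusted p = 0.0655, edgeR).

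Hist1h1c (H1.2) had 1025, 65.3, 704 and 138 counts in UB dko libraries, against 779, 2145, 1898 and 2483 in UB control libraries. UB dko 1 exceeded UB control 1. The log2 fold change was -1.91 ± 0.72 (SE, adjusted p = 0.161, edgeR).

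Hist1h1e (H1.4) had 2341, 462, 1326 and 554 counts in UB dko libraries, against 1847, 3849.6, 4309 and 2672 in UB control libraries. UB dko 1 was again above UB control 1. The log2 fold change was -1.44 ± 0.46 (SE, adjusted p = 0.104, edgeR).

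H1f0, the subtype of differentiated cells, had 1014, 585, 553 and 519 counts in UB dko libraries, against 679.7, 829, 890.2 and 879 in UB control libraries. UB dko 1 was above all controls and the other 3 dko libraries were below all of them. Its log2 fold change was -0.29 ± 0.24 (SE, 95% interval -0.81 to 0.22, adjusted p = 0.511, edgeR), and 28.9% of genes tested had a lower one.

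H1fx had 117, 10.2, 124 and 15.2 counts in UB dko libraries, against 76.3, 196, 159.7 and 142 in UB control libraries. UB dko 1 and 3 lay within the control range, and UB dko 2 and 4 far below it. The log2 fold change was -1.10 ± 0.68 (SE, 95% interval -2.57 to 0.37, adjusted p = 0.379, edgeR).

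**Figure D1:**
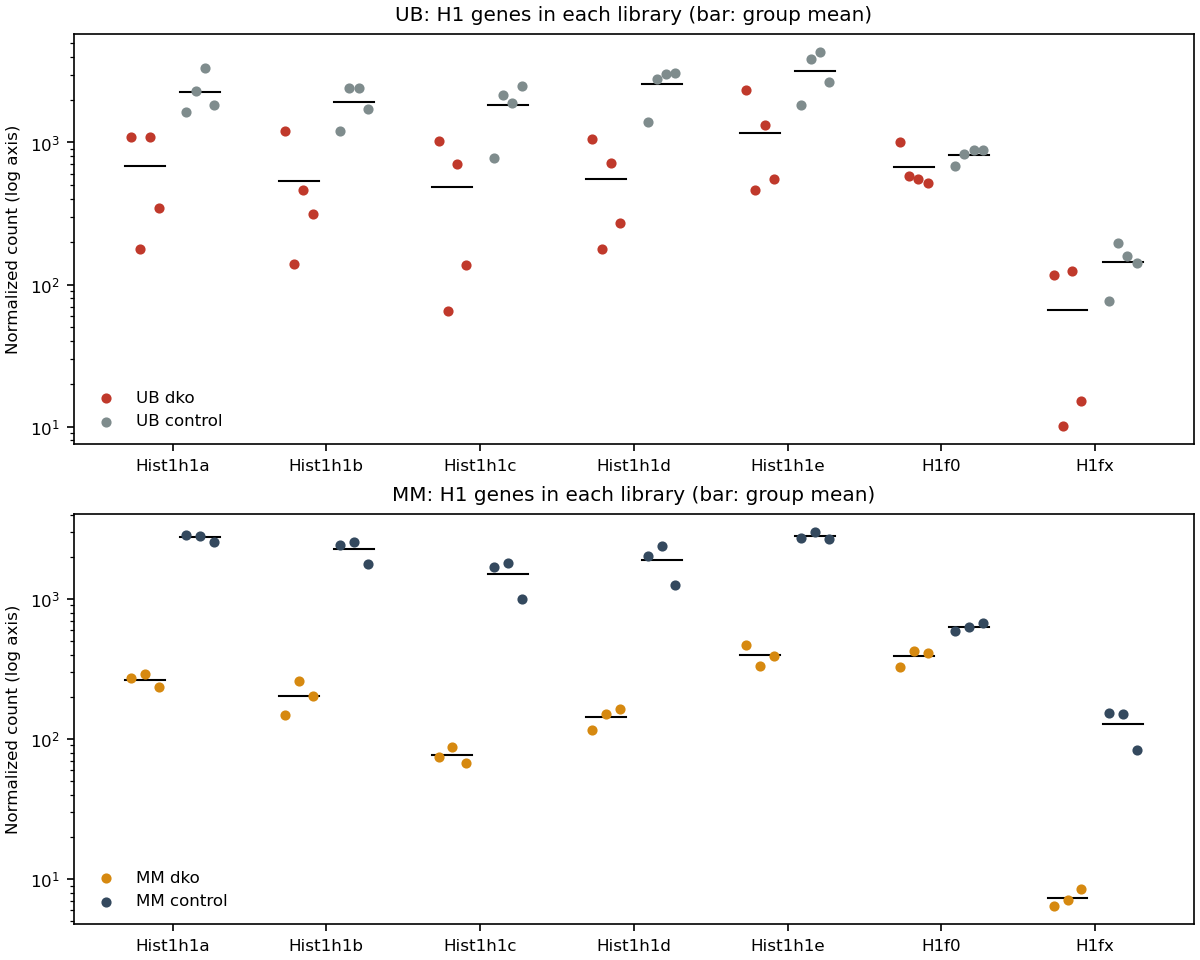
Normalized counts of the 7 H1 genes in each library (points, log axis) with the group mean (bar), UB above and MM below, dko left of control. In the MM the groups are apart for all 7 genes, and in the UB they are apart for Hist1h1a and Hist1h1d, and UB dko 1 reaches 2341 counts of Hist1h1e against 1847 in UB control 1.

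The dko libraries of the UB were thus unlike each other. Libraries 2 and 4, which carry the GC trend and have low Map2k2, had the lowest count of each of the 5 Hist1h1 genes and of H1fx. Libraries 1 and 3, without the trend and with Map2k2 within the control range, had the highest. The GC trend and the Map2k2 level split these libraries alike and cannot be told apart. With libraries 1 and 3 alone against the 4 controls, Hist1h1a (log2 fold change -1.09 ± 0.24, SE, adjusted p = 0.0145, edgeR) and Hist1h1d (-1.57 ± 0.31, SE, adjusted p = 0.0177, edgeR) were called lower, which 3.89% of 14581 genes were. The other 3 Hist1h1 genes stood at log2 -0.83 to -1.24, H1f0 at -0.10 and H1fx at -0.29, none of them called.

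In the MM, all 7 H1 genes were lower in dko in the uncorrected fit, by the most for Hist1h1c and H1fx and by the least for H1f0, whose direction turned once GC content was fitted. All 7 were called at an adjusted p under 0.05 and 0 were higher (edgeR, 0 also at an unadjusted p under 0.05, where 27.7% of genes were higher), beside 27.9% of the 12431 genes tested that were called lower and 25% that were called higher. DESeq2 also called 7 lower, beside 18.9% of genes, and 0 higher, beside 20.7%. No dko library reached a control library for any of the 7, which held for 32.8% of genes tested.

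Hist1h1c had 74.6, 88.4 and 67.9 counts in MM dko 1 to 3, against 1703, 1794 and 1003 in MM control 1 to 3. It had the lowest log2 fold change of the 7, -4.31 ± 0.25 (SE, adjusted p = 5.33e-08, edgeR), or 19.8-fold lower, and 0.724% of genes tested had a lower one. Hist1h1d had 115, 152 and 163 counts in MM dko libraries, against 2012, 2397 and 1266 in MM control libraries, and its log2 fold change was -3.73 ± 0.25 (SE, adjusted p = 1.35e-07, edgeR).

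Hist1h1a had 271, 289.8 and 236 counts in MM dko libraries, against 2867, 2836 and 2542 in MM control libraries. The dko libraries lay close together at 266 ± 27.3 (SD, n = 3), and the log2 fold change was -3.38 ± 0.17 (SE, adjusted p = 1.17e-08, edgeR). Hist1h1b had 148, 258 and 204 counts in MM dko libraries, against 2443, 2566 and 1785 in MM control libraries, and its log2 fold change was -3.51 ± 0.22 (SE, adjusted p = 8.94e-08, edgeR).

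Hist1h1e had 469, 332 and 394 counts in MM dko libraries, against 2725, 2984 and 2670.0 in MM control libraries. Its fitted value was the nearest to 0 of the 5 Hist1h1 genes in both tissues, and here it fell by 2.80 ± 0.17 on the log2 scale (SE, adjusted p = 7.12e-08, edgeR).

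H1f0 had 329, 424 and 414 counts in MM dko libraries, against 594, 631 and 669 in MM control libraries. The groups were apart but close, and the log2 fold change was -0.70 ± 0.17 (SE, adjusted p = 0.00367, edgeR), which became 0.14 (adjusted p = 0.568, edgeR) with GC and length offsets. H1fx had 6.49, 7.07 and 8.49 counts in MM dko libraries, from 4, 2 and 5 reads, against 152, 150.2 and 83.2 in MM control libraries. Its log2 fold change, -4.10 ± 0.46 (SE, adjusted p = 1.1e-05, edgeR), rests on those few reads.

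**Figure D2:**
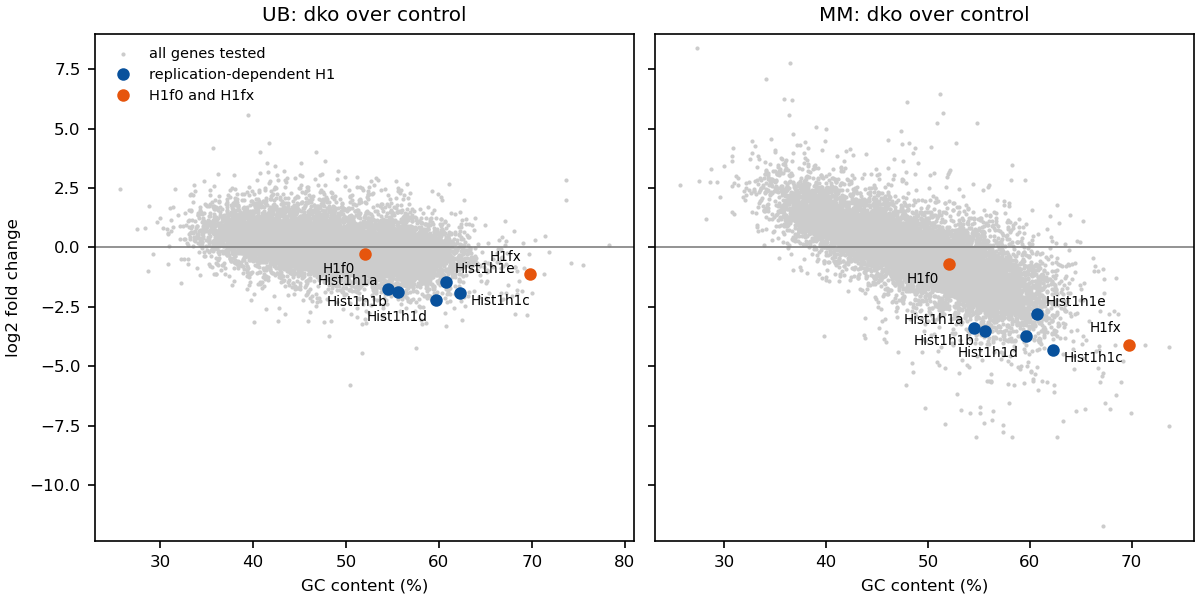
Log2 fold change of dko over control against GC content (%) for all genes tested (grey) and the 7 H1 genes (GC of the RefSeq span), UB left and MM right. In the MM the cloud slopes down with GC content and H1f0 (52.1% GC) lies in it. The Hist1h1 genes lie lower, with Hist1h1e (log2 -2.80) the nearest to 0 among them. The lowest point in the MM is Hist2h3b, whose fitted value is set by 0 reads in every dko library.

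The H1 genes are GC-rich, and fold changes in the MM moved with GC content. The RefSeq spans hold 54.5% to 62.3% GC in the 5 Hist1h1 genes, 52.1% in H1f0 and 69.8% in H1fx. The median log2 fold change of MM genes was 1.20 in the lowest of 5 GC bins, -0.78 in the fourth (50.3% to 54.6% GC), which holds H1f0, and -1.72 in the fifth. In the UB the same bins had medians of 0.49, -0.15 and -0.30. Placed by the GC content of its RefSeq span, H1f0 in the MM thus stood near the median of its bin. Placed in the same way, the Hist1h1 genes stood below the medians of their bins, Hist1h1e (-2.80) by the least. The fifth bin is wide, reaching 73.7% GC, and the bins were set with GENCODE models. By its GENCODE model (51.2% GC) Hist1h1e falls in the fourth bin, and it is then not the Hist1h1 gene nearest to its median.

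A fit with offsets for each library's trend in GC content and transcript length was made with the gene models of GENCODE. In the MM it kept the 5 Hist1h1 genes called lower, at log2 -2.02 ± 0.13 for Hist1h1a and -2.00 ± 0.17 for Hist1h1b (SE), beside 11% of genes called lower, while H1fx stood at -0.54 ± 0.44 (SE, adjusted p = 0.416, edgeR). The GENCODE models of Hist1h1c, Hist1h1d and Hist1h1e run well past the RefSeq genes, by 2.15, 9.57 and 2.47 times in length, and the model of Hist1h1d holds 39.8% GC against 59.7% in the RefSeq span. With RefSeq spans for the 7 genes, a choice made after seeing the data, Hist1h1c stood at -1.81 and Hist1h1d at -1.59 (adjusted p = 1.5e-05 and 7.29e-05, edgeR), against -2.90 and -4.97 with the GENCODE models. Hist1h1e then stood at -0.50 and was not called (adjusted p = 0.11, edgeR), so that 4 of the 7 were called lower, again beside 11% of genes. In the UB the same spans gave 2 genes called lower, Hist1h1d at -1.74 (adjusted p = 0.000139, edgeR) and Hist1h1e at -0.88 (adjusted p = 0.00703, edgeR), beside 4.05% of genes, and the GENCODE models gave 0 of the 7, beside 4.04%. Hist1h1d stood at -2.33 ± 0.89 with the GENCODE models (SE, adjusted p = 0.176, edgeR), so its fold was as large as without offsets while its error was larger. Hist1h1a and Hist1h1b, whose models are 0.995 and 0.936 times the RefSeq length, moved little between these offsets in either tissue.

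**Figure D3:**
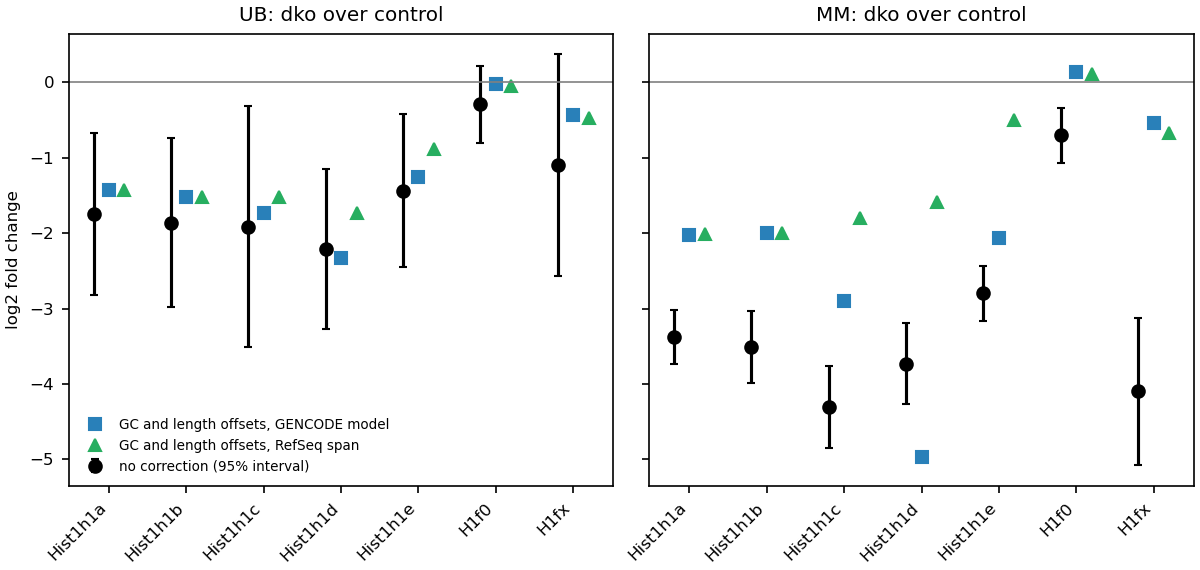
Log2 fold change of dko over control of each H1 gene in the UB (left) and MM (right): no correction with its 95% interval (circles), GC and length offsets from GENCODE models (squares) and from RefSeq spans (triangles). In the MM, H1f0 moves past 0 under both offsets, H1fx moves to -0.54 and -0.68, and Hist1h1a and Hist1h1b stay near -2.

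The dko effect was compared between tissues in a fit over all 14 libraries and the 15225 genes tested in it. The fitted effect was lower in the MM than in the UB for all 7 genes, but 0 of them differed at an adjusted p under 0.05 (edgeR), beside 6.14% of genes. At an unadjusted p under 0.05 there were 5 (Hist1h1a, Hist1h1b, Hist1h1d, Hist1h1e and H1fx), beside 26.1% of genes, and DESeq2 called H1fx alone, beside 13.3% of genes. The difference was log2 -1.60 ± 0.66 for Hist1h1a, -0.38 ± 0.32 for H1f0 and -2.97 ± 1.02 for H1fx (SE, adjusted p = 0.142, 0.465 and 0.0806, edgeR). With only UB dko 1 and 3 on the UB side, 6 genes differed, all but H1f0, beside 32.7% of genes. With GC and length offsets 0 differed, beside 5.39% of genes with either set of gene lengths, and H1f0 and, with RefSeq spans, Hist1h1e then stood on the other side of 0 at 0.13 or less. Stage, Cre line and the Mek2 genotype of controls also differ between the tissues and cannot be told apart from tissue.

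The level of each gene can be compared with the others only per kilobase, and the length used decides the order among Hist1h1 genes. With RefSeq lengths (chosen after seeing the data), Hist1h1e, Hist1h1d and Hist1h1a led in UB control cells at 4053 ± 1431, 3319 ± 1031 and 3066 ± 1029.6 normalized counts per kilobase (SD, n = 4), which do not differ beyond their spread. In MM control cells Hist1h1a and Hist1h1e, at 3689 ± 240.4 and 3572 ± 215 (SD, n = 3), were the highest and lay within 1 SD of each other. H1f0 and H1fx were the lowest in both, at 357 ± 42.2 and 135 ± 47.2 in UB control and 275 ± 16.4 and 121 ± 37.0 in MM control cells. In dko cells H1f0 stood closer to the Hist1h1 genes, and in MM dko it averaged 169.7 ± 22.7 per kilobase, between Hist1h1d at 185 ± 32.3 and Hist1h1c at 106 ± 14.4. With GENCODE models, as planned, Hist1h1d dropped to the lowest of the 5 Hist1h1 genes in every group (75.0 in UB dko, 347 in UB control, 19.3 in MM dko and 255 in MM control), while Hist1h1a led. H1f0 then stood above Hist1h1d in control cells too, at 399 ± 47.1 in UB control (SD, n = 4) and 307 ± 18.3 in MM control (SD, n = 3).

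H1f0 made a larger share of the H1 transcripts in every dko library than in any control of its tissue. By GENCODE models, H1f0 and H1fx together made 10.3%, 28.5%, 9.99% and 16.9% of the summed H1 counts per kilobase in UB dko 1 to 4, against 6.70%, 5.28%, 4.63% and 6.23% in UB control 1 to 4. They made 16%, 17.7% and 19.5% in MM dko 1 to 3, against 4.00%, 4.01% and 4.68% in MM control 1 to 3. UB dko 1 and 3, which lacked the GC trend, had Map2k2 in the control range, and UB dko 3 gave 32.5% of its counts to Gm42418. The part of the GC trend in these shares was not tested. H1f0 alone made 7.24% to 27.7% in UB dko libraries, against 3.56% to 5.64% in UB control libraries, and 15.5% to 18.8% in MM dko libraries, against 2.79% to 3.87% in MM control libraries. H1fx made 0.484% to 0.651% in MM dko and 0.811% to 1.21% in MM control libraries. Since a share depends on the other members, this describes unequal change, not more H1f0, and it was not corrected for GC content. With RefSeq lengths the shares of H1f0 and H1fx together were lower throughout, averaging 9.69% ± 5.06 in UB dko and 3.22% ± 0.541 in UB control (SD, n = 4), and 11.1% ± 1.27 in MM dko and 2.67% ± 0.266 in MM control (SD, n = 3). All 7 genes together took 0.0230% to 0.143% of all counts in UB dko libraries, against 0.142% to 0.296% in UB control libraries, and 0.0253% to 0.0304% in MM dko libraries, against 0.243% to 0.336% in MM control libraries.

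**Figure D4:**
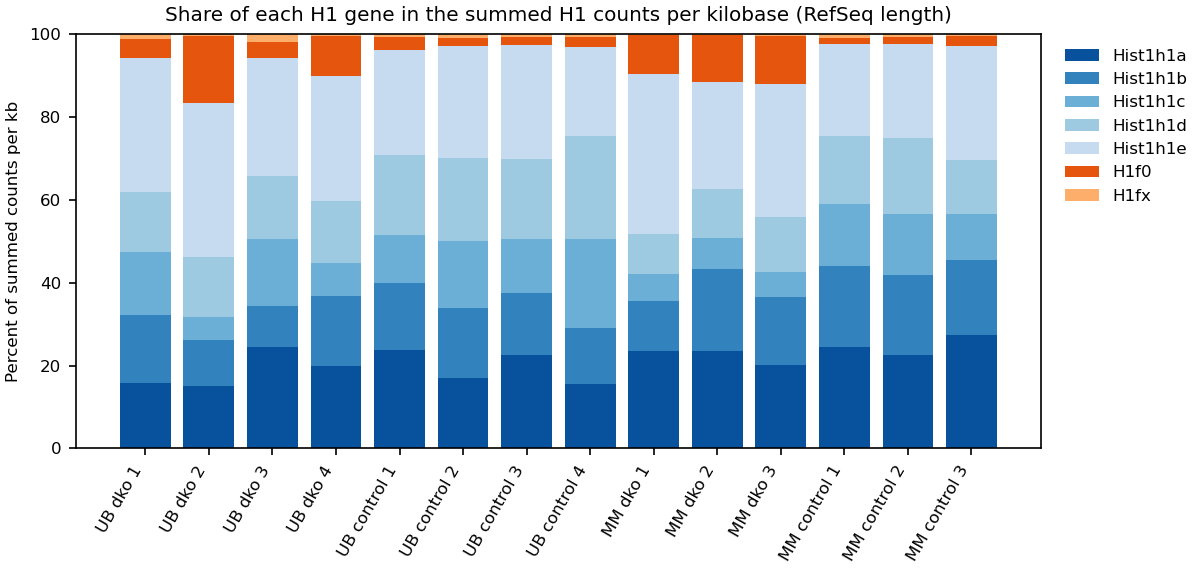
Share (%) of each H1 gene in the summed H1 counts per kilobase of RefSeq length in each of the 14 libraries, dko left of control within each tissue (blue, Hist1h1 genes; orange, H1f0 and H1fx). The orange part is larger in every dko library than in any control of its tissue, most in UB dko 2 at 16.6%, and Hist1h1c is thinner in UB dko 2 and 4 and in the MM dko.

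The assignment of some reads is uncertain. Hist1h1c, Hist1h1d and Hist1h1e share 22.0%, 26.5% and 25.5% of their coding 50-base words with each other, so reads there may not have been assigned to a single gene, while Hist1h1a and Hist1h1b share none. Hist1h1e overlaps the models of the core histone gene Hist1h2be and of Gm11398 on the same strand, and H1f0 overlaps Gm49544 on the other strand. H1fx overlaps Gm47286 on the same strand and Gm5577 on the other strand, and shares with Gm5577 31.8% of its coding words. The strand setting of the counting is not given in the sources used here, so reads of overlapping genes cannot be told apart.

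The other linker histones of this family are germline-specific. H1foo, H1fnt and Hils1 had 0 counts in all 14 libraries. Hist1h1t, the testis H1 that lies in the same cluster, had 0 reads in UB dko against 38 in UB control libraries, and 1 in MM dko against 20 in MM control libraries, and was too low to be tested in either tissue.

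The genes that make, load and accompany H1 give the setting. Of all genes tested in the UB, 1.24% were called lower and 2.70% higher (edgeR). The shares were 7.91% lower and 13% higher at an unadjusted p under 0.05, and 3.30% and 5.41% with DESeq2. With GC and length offsets 4.04% were called lower. In the MM 27.9% were called lower and 25% higher (edgeR), 18.9% and 20.7% with DESeq2, and 11% lower with GC and length offsets. The replication-dependent core histones are a class whose mRNAs usually end in a stem-loop, and most but not all of those listed carry Hist1 names. They had a median log2 fold change of -1.91 in the UB, against 0.06 over all genes tested. Of 50 tested, 5 were called lower and 0 higher (edgeR, 43 and 0 at an unadjusted p under 0.05, 17 and 0 with DESeq2). The 5 Hist1h1 genes had a median of -1.86 there. Hist1h2bp (-2.40, adjusted p = 0.02, edgeR) and Hist1h2bb (-1.78, adjusted p = 0.0217, edgeR) had the smallest adjusted p. The count called lower was 26 without UB dko 1, 11 without UB dko 2, 8 without UB dko 3, 3 without UB control 1, and 0 without UB dko 4 or UB control 2, 3 or 4, and it was 13 with GC and length offsets. In the MM, 49 of 54 were called lower and 0 higher (edgeR, 0 also at an unadjusted p under 0.05 and with DESeq2). Their median was -4.39, also with Hist2h3b, at 0 reads in dko, set to its bound of 3 reads over the group, against -0.05 over all genes and -3.51 for the Hist1h1 genes. The list was led by Hist1h4b (-5.70, adjusted p = 1.17e-08, edgeR) and Hist1h4a (-5.34, adjusted p = 2.05e-08, edgeR). With GC and length offsets 43 were called lower, 1 was called higher and the median was -3.04.

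Of the core histone variants listed as replication-independent, 1 of 9 was called lower in the UB, Cenpa (-1.24, adjusted p = 0.0234, edgeR), the centromeric H3, and the median was -0.49. Cenpa was not called when any 1 UB control was left out. At an unadjusted p under 0.05, 4 were lower and 0 higher, beside 7.91% and 13% of all genes, and DESeq2 called 1 lower. With GC and length offsets 2 were called lower, Cenpa and H2afx (-0.96, adjusted p = 0.0246, edgeR), beside 4.04% of all genes. In the MM, where 27.9% of all genes were called lower and 25% higher, 3 of the 9 were lower, among them H2afx (-3.87, adjusted p = 4.63e-07, edgeR), whose mRNA can also end in a stem-loop, and H2afz (-1.14, adjusted p = 9.58e-05, edgeR), and 1 was higher, H3f3a (0.77, adjusted p = 0.00106, edgeR), with a median of -0.07. With GC and length offsets H2afx stood at -1.37 and H2afz at -0.78, both still called, and H3f3a at 0.14, not called (adjusted p = 0.459, edgeR).

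Of the 13 genes for histone mRNA synthesis and end processing, 0 were called in the UB in either direction (edgeR, 2 lower and 0 higher at an unadjusted p under 0.05, 0 with DESeq2, 1 lower with GC and length offsets), with a median of -0.30. In the MM 3 were lower, beside 27.9% of all genes, led by Sympk (-2.10, adjusted p = 4.47e-06, edgeR), a scaffold of the cleavage complex, and Upf1 (-2.10, adjusted p = 7.63e-06, edgeR), a helicase of histone mRNA decay. There, 4 were higher, beside 25% of all genes, led by Casp8ap2 (1.39, adjusted p = 3.15e-05, edgeR), known as FLASH, and Npat (1.27, adjusted p = 9.03e-05, edgeR), a coactivator of histone transcription. With GC and length offsets none of the 13 was called higher, and Casp8ap2 stood at 0.34, Npat at 0.12, Sympk at -0.77 and still called, and Upf1 at -0.53 and not called (adjusted p = 0.0581, edgeR). Under these offsets 4 were called lower, beside 11% of all genes. They include Slbp, the gene of the stem-loop binding protein (-0.61, adjusted p = 0.0236, edgeR), which was not called without offsets.

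Of the 19 chaperones and proteins that share linker DNA with H1, 1 was called lower in the UB, Cdca7 (-1.45, adjusted p = 0.0255, edgeR), the partner of the remodeller Hells, with a median of -0.36. At an unadjusted p under 0.05, 8 were lower and 0 higher, beside 7.91% and 13% of all genes. DESeq2 called 4 lower and 0 higher, beside 3.30% and 5.41%. In edgeR none of the 19 was called when UB dko 4 or any 1 UB control was left out, and 3 were without UB dko 1. With GC and length offsets 9 were called lower. In the MM 6 were lower, beside 27.9% of all genes, led by Parp1 (-1.31, adjusted p = 0.000109, edgeR), which competes with H1 for nucleosomes, and Cdca7 (-1.05, adjusted p = 0.000238, edgeR), and 3 were higher, beside 25%, led by Hells (1.26, adjusted p = 2.36e-05, edgeR) and the architectural protein gene Hmga2 (0.60, adjusted p = 0.00348, edgeR). With GC and length offsets Hells turned to -0.36, Parp1 stood at -0.51 (adjusted p = 0.0814, edgeR) and Hmga2 at 0.29 (adjusted p = 0.0937, edgeR), none of them called, and Cdca7 at -0.60 was still called. Under these offsets 6 of the 19 were called lower, beside 11% of all genes, and 1 higher. Among the lower were Hmgb1 (-2.08, adjusted p = 1.8e-06, edgeR), Nap1l1 (-1.15, adjusted p = 6.21e-06, edgeR) and Nasp (-1.38, adjusted p = 1.17e-05, edgeR). Nap1l1 and Nasp were not called without offsets.

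Genes of S phase and DNA replication, the phase in which Hist1h1 mRNA is made, were lower in part. In the UB 13 of 48 were called lower and 0 higher (edgeR), beside 1.24% and 2.70% of all genes, with a median of -0.88. At an unadjusted p under 0.05 there were 33 and 0, beside 7.91% and 13%, and with DESeq2 22 and 0, beside 3.30% and 5.41%. The lower ones were led by the replication licensing gene Cdc6 (-1.33, adjusted p = 0.00772, edgeR) and the thymidine kinase gene Tk1 (-1.75, adjusted p = 0.0125, edgeR). The count called lower was 23 without UB dko 1, 16 without UB dko 3, 8 without UB dko 2, 3 without UB dko 4 or UB control 1, 1 without UB control 3 or 4, and 0 without UB control 2, and it was 26 with GC and length offsets. In the MM 30 were lower and 3 higher, beside 27.9% and 25% of all genes, with a median of -0.73. Mcm2 (-1.98, adjusted p = 1.36e-06, edgeR), of the replicative helicase, and Chaf1a (-2.51, adjusted p = 9.95e-06, edgeR), of the assembly factor CAF-1, led the lower ones, and Ccne2 (1.61, adjusted p = 9.9e-06, edgeR) and Rpa3 (1.28, adjusted p = 0.0023, edgeR) the higher ones. Ccne2 and Rpa3 turned to -0.22 and -0.72 with GC and length offsets, under which 20 genes were called lower.

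Among 12 cell cycle exit genes, 11 were tested in each tissue. In the UB 3 were called higher and 0 lower, beside 2.70% and 1.24% of all genes, with a median of 0.48. The higher ones were led by the CDK inhibitor gene Cdkn1a (1.46, adjusted p = 0.0197, edgeR) and Rb1 (1.30, adjusted p = 0.0211, edgeR). None was called when any 1 UB control was left out, 1 was without UB dko 4, 2 were without UB dko 2 and 4 were without UB dko 1. In the MM 5 were higher and 1 lower, beside 25% and 27.9% of all genes, with a median of 0.59. Cdkn1b (1.64, adjusted p = 5.26e-05, edgeR) and Rb1 (1.21, adjusted p = 0.00021, edgeR) led, and Foxo3 was lower (-0.88, adjusted p = 0.00257, edgeR) but stood at -0.0043 with GC and length offsets. Under the same offsets Rb1 stood at 0.20 and was not called (adjusted p = 0.505, edgeR), Cdkn1b at 0.95 was still called, and 3 genes were called higher. H1f0, which is known for its rise on cell cycle exit, was not among the genes called higher in either tissue.

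**Figure D5:**
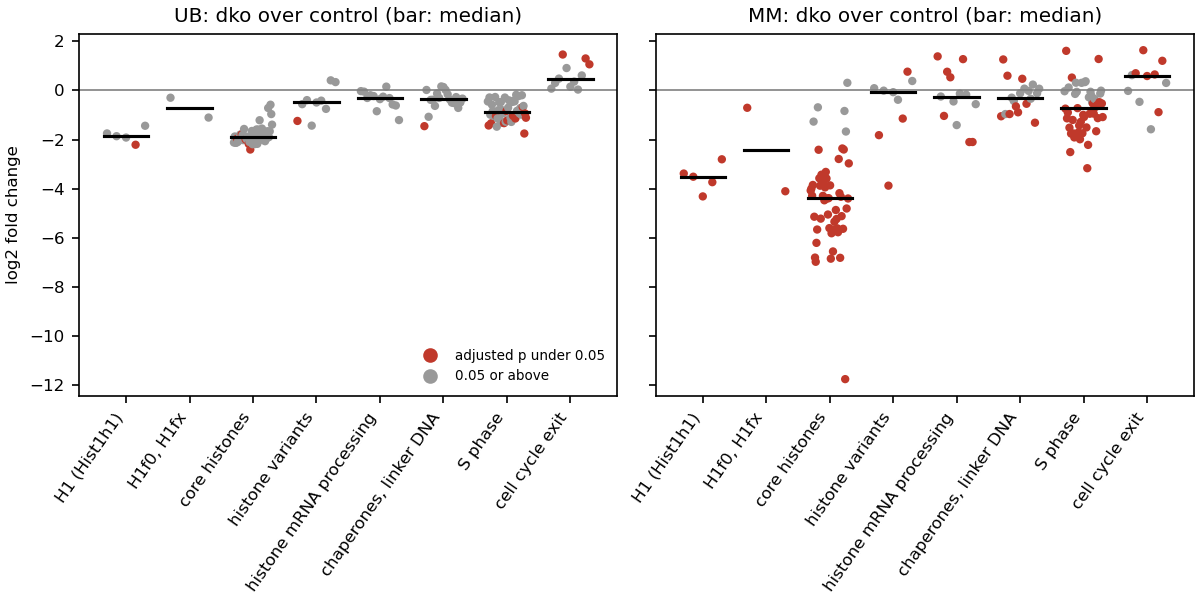
Log2 fold change of dko over control of each tested gene of the H1 groups and 6 other gene lists, UB left and MM right (red, adjusted p under 0.05; bar, list median). The Hist1h1 genes lie with the core histones in both tissues, with UB medians of -1.86 and -1.91 and MM medians of -3.51 and -4.39, and the lowest MM point is Hist2h3b with 0 reads in dko.

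Across the 14 libraries, each gene's log2 level was centred on the control mean of its tissue and compared with that of Hist1h1e and of H1f0 by the root mean square difference, over 10313 genes. Tcof1 (0.319), Rplp2 (0.331), Metrn (0.360), B4galt2 (0.362) and Pheta1 (0.366) were the most like Hist1h1e, and Hist1h1a (0.433) was the nearest H1 gene at rank 17. Igf2bp1 (0.151), Ube4b (0.153), Suv39h1 (0.166) and Dgcr2 (0.169) were among the 5 most like H1f0, with no H1 gene nearer than 1.29. With each library's GC and length trend removed, Hist1h1a (0.270) and Hist1h1b (0.360) came among the 5 nearest to Hist1h1e, beside Pum3, Rack1 and Cdca8, and none of these 4 genes stayed among the 5 nearest to H1f0.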

How the data were processed

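Per the labels and the study's methods, cells were sorted by GFP, and RNA libraries (NuGen Ovation Solo, single-end) were trimmed with Trimmomatic, aligned to GRCm38 with STAR and counted with featureCounts. The submitters' processing notes also name HISAT2, HTSeq and Subread without their roles. The deposited count values are whole-number reads per gene with no normalization, made by the authors. Symbols, gene models and GC content came from GENCODE M21 and RefSeq (GRCm38.p6), not from the release the authors used, and 55154 of 55335 UB and 52489 of 52636 MM identifiers matched. Counts in the 4 UB dko, 4 UB control, 3 MM dko and 3 MM control libraries were tested within each tissue with edgeR 4.0.16 (R 4.3.3, low counts removed by filterByExpr at its defaults of 10 per library and 15 in all, TMM, robust quasi-likelihood fit, Benjamini-Hochberg adjustment), which was tested on simulated data. Standard errors were taken from the F statistic, as the absolute log2 fold change divided by its root. Tissues were compared in a joint fit over the genes found in both tables. Alternatives were DESeq2 1.42.0, other scalings and filters, offsets for GC content and length (splines with 4 degrees of freedom, each library), a replicate block and leaving out each library. Replicates are embryos. Genes were named by a rule: all H1 genes, the 2 smallest adjusted p in each direction per list, and the 5 nearest profiles, of which 1 gene is not reported here. The members and lists were chosen with earlier results of these data known.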

Additional observations from a re-analysis of the deposited data

Results flagged for a closer look

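Values far from the rest of their group were looked for in the UB, where each group has 4 libraries. Among the 14 groups examined (7 genes in dko and in control), 2 held a library set apart from the other 3. Chance alone would give about 1 in 20 groups if they were independent. These groups share their libraries, so the 2 cannot be weighed against that rate. H1f0 had 1014 normalized counts in UB dko 1, against 519 to 585 in the other UB dko libraries. Hist1h1d had 1389 normalized counts in UB control 1, against 2812 to 3091 in the other UB controls. UB dko 1 is also a library whose Map2k2 lies in the control range.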

How the results depend on the processing

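The number of H1 genes called lower in UB dko, 1 of 7, was 4 with DESeq2, 2 with library size only, 2 with UB dko libraries 1 and 3 only and 2 with GC and length offsets from RefSeq spans, and 0 without a filter, with GC and length offsets and with a replicate block. It ran from 0 to 5 as single libraries were left out: 5 without UB dko 1, 2 without UB dko 3, and 0 without UB dko 4 or any of UB control 1 to 4. The number lower in MM dko, 7, was 4 with GC and length offsets from RefSeq spans and 5 with those from GENCODE models, and 7 whichever library was left out. The number differing between tissues, 0, was 1 with DESeq2, 6 without a filter and 6 with UB dko libraries 1 and 3 only, and 0 to 4 as libraries were left out, with 4 without UB dko 2 and 1 without UB dko 4. No H1 gene was called higher in either tissue under any alternative run. The cause of these shifts was not tested, beyond the change in genes, samples or spans that each alternative makes. For fits with library size only, no filter, a replicate block or a library left out, the share of all genes called is not given. Their counts therefore cannot be read as particular to the H1 genes. Without UB dko 1, the core histones called lower also rose from 5 to 26 and the S-phase genes from 13 to 23.

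The direction turned in a few fits, none of them called. H1f0 in the MM stood at log2 0.14 with GC and length offsets, 0.14 when a replicate block was added and 0.11 with RefSeq spans. In the tissue comparison H1f0 stood at 0.12, 0.15 and 0.11 in the same fits, and Hist1h1e at 0.13 with RefSeq spans. The percent of H1 counts from H1f0 and H1fx, 17.7 in MM dko, 5.71 in UB control and 4.23 in MM control by GENCODE models, was 26.7, 7.87 and 6.44 without division by length and 11.1, 3.22 and 2.67 with RefSeq lengths. Scaled by library size only, the genes tested had a median of -0.28 in the UB and -0.44 in the MM, where TMM gave 0.06 and -0.05. Replicate numbers did not pair the samples (correlations of same-numbered deviations -0.28 to 0.12 in the UB and -0.06 to -0.02 in the MM), and the replicate block kept 7 calls in the MM and 0 in the tissue comparison. RefSeq spans and lengths were chosen after seeing the data. MM dko libraries, at 1443582 to 3438297 counts, limit H1fx most.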
